A study of Mus musculus with 6 samples.

Results

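The genes described here encode the selectins and other adhesion molecules with which blood endothelium catches leukocytes and platelets. They are 9 genes taken by symbol: Sele, Selp, Icam1, Icam2, Vcam1, Madcam1, Vwf, Cd99l2 and Glycam1. Each had 1 probe set that the platform annotation assigns to it alone, and these are 9 of 22180 genes with a named probe set. The RNA came from CD31+ blood endothelial cells sorted from the intestine of adult mice on a mixed C57BL/6 x 129 background, leaving out those that stained for gp38, EpCAM or CD45. The knockout mice were Apcfl//fl; Villin-CreERT2, in which tamoxifen activates a Cre recombinase driven by the villin promoter of intestinal epithelium, so Apc, a brake on Wnt signalling, is lost from the epithelium while the sorted endothelium is not targeted. The control mice (WT, Apcfl//fl) have no Cre named in their labels, and both groups received tamoxifen on 5 days and were taken on day 6. There were 3 knockout and 3 control arrays, labelled as biological replicates, with 1 Affymetrix Mouse Gene 2.0 ST array each. The labels do not say whether animals were pooled.

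Leukocytes leave the blood in steps. Selectins on the endothelium bind sugars on passing cells and slow them, after which immunoglobulin-superfamily ligands hold the activated leukocyte integrins, and junctional proteins let the cells cross. In the gut, the addressin MAdCAM-1 on venules is known for catching lymphocytes that carry the integrin α4β7. High endothelial venules of lymphoid tissue also display sulphated mucins that bind L-selectin. Cytokines acting through NF-kB can induce E-selectin, ICAM-1 and VCAM-1, among others. P-selectin and von Willebrand factor are held ready in Weibel-Palade bodies, the storage granules of endothelium.

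Values are log2 expression after RMA, on which 1 unit is a doubling of signal, and they are not compared between genes because probe sets differ in brightness. Background was set at 4.11, the 90th percentile of the mean values of 1429 chemosensory receptor genes (olfactory, vomeronasal, bitter taste), and all 9 genes lay above it on all 6 arrays. Apc itself read 6.42, 6.24 and 6.38 on the knockout arrays and 6.29, 6.52 and 6.70 on the control arrays, a level that does not check the labels because the sorted cells were not the targeted ones. Blood endothelial markers, 12 of 12 above background on all 6 arrays, averaged 10.7 on each knockout array and 10.7 to 10.8 on the controls. The brightest, Plvap (0.25 ± 0.056, adjusted p = 0.0527) and Cdh5 (-0.052 ± 0.044), did not pass. Cldn5, a tight junction gene named after its value was seen, was lower (-1.28 ± 0.19, adjusted p = 0.0137). It was the only marker of the 12 to pass. An unadjusted limma p below 0.05 came from 6 markers, against 16.4% of all genes, and 5 of those 6 were higher in the knockout. Knockout and control values were fully apart in 7 markers, against 22.0% of all genes. The median change of the 12 was 0.032. Enterocyte markers averaged 5.42 to 5.71 in the knockout and 7.01, 9.06 and 8.46 in controls 1, 2 and 3. Mural cell markers averaged 7.71 to 8.08 in the knockout and 8.57 to 8.88 in the control. In bulk RNA, fewer cells of a type and less RNA per cell cannot be told apart.

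None of the adhesion genes passed the test between the genotypes. Of the 9, 0 reached an adjusted p of 0.05 in limma's moderated test, against 2.57% of all 15312 genes tested (393 genes), and 1 had an unadjusted p under 0.05, against 16.4% of all genes. The median change was -0.042 on the log2 scale (knockout minus control), beside -0.017 over all genes, and 5 of 9 changes were below 0, against 53.3% of all genes. The largest differences were in Vcam1, lower in the knockout, and Selp, higher. The groups did not overlap for 2 genes, Vcam1 and Icam2, against 22.0% of all genes, and both were lower in the knockout, against 12.3% of all genes. After a change, ± is the standard error of the limma fit over all genes, n = 3 arrays a group, and adjusted p-values are limma's after Benjamini-Hochberg adjustment over 15312 genes.

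**Figure D1:**
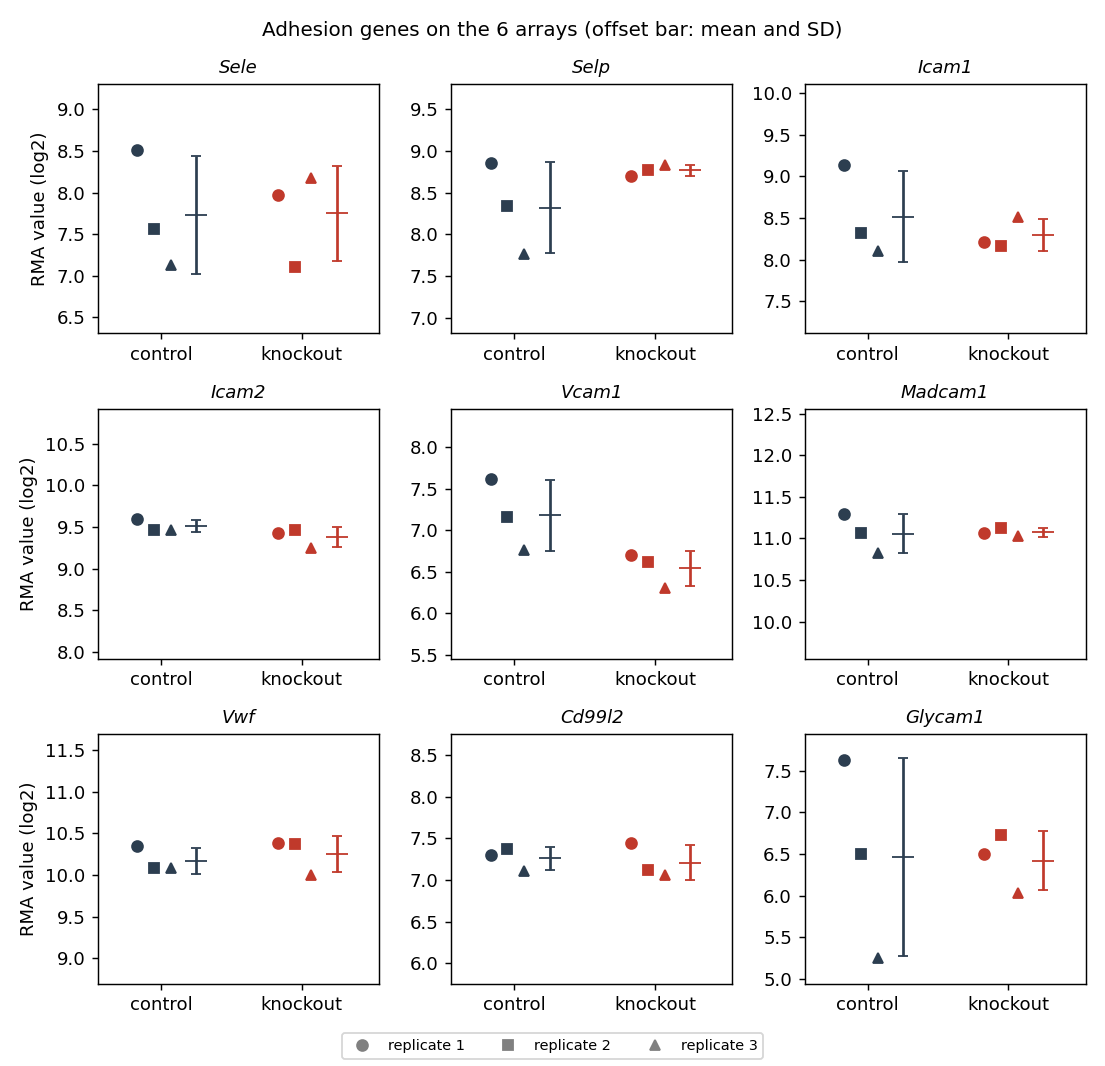
Log2 RMA value of each adhesion gene (vertical axes, each spanning 3 log2 units) on the 3 control and 3 knockout arrays, with marker shape giving the replicate number and an offset bar giving mean and SD. The Vcam1 points of the groups do not overlap, and the 3 Selp points of the knockout lie close together at 8.70 to 8.83 while the controls spread from 7.76 to 8.86.

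The selectins came first in order of action. Sele encodes E-selectin, which endothelium makes after cytokine stimulation. It read 7.97, 7.10 and 8.18 on knockout arrays 1 to 3 and 8.52, 7.56 and 7.13 on control arrays 1 to 3. The groups overlapped over most of their range, and the difference of 0.016 ± 0.36 had a 95% interval from -0.81 to 0.84 (adjusted p = 0.989). Its sign turned when knockout 1 (-0.093), knockout 3 (-0.20), control 2 (-0.072) or control 3 (-0.29) was left out. Selp encodes P-selectin, which endothelium and platelets store in granules. It read 8.70, 8.77 and 8.83 in the knockout and 8.86, 8.34 and 7.76 in the controls, so the knockout arrays were nearly level and control 3 stood lowest. The difference was 0.45 ± 0.23 (95% interval -0.066 to 0.96, adjusted p = 0.376). It was 0.17 without control 3 and 0.72 without control 1, and neither value passed.

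Among the immunoglobulin-superfamily ligands, Vcam1 was furthest from equality. VCAM-1 binds the α4β1 integrin of lymphocytes and monocytes. Vcam1 read 6.71, 6.62 and 6.31 in the knockout and 7.61, 7.16 and 6.76 in the controls. Each knockout array was below each control, by a margin that was narrow between knockout 1 and control 3. The difference was -0.64 ± 0.21, a 1.55-fold lower mean (95% interval -1.12 to -0.16), with an unadjusted limma p of 0.0151 that did not hold over all genes (adjusted p = 0.171). It lay between -0.84 and -0.42 when each array was left out in turn, without control 3 and control 1 respectively. The mural list moved the same way, with 10 of 10 markers above background and a median of -0.77 (Rgs5 at -0.70, Acta2 at -0.82). The enterocyte list did too, with a median of -3.03 (Fabp2 at -3.29, Fabp1 at -3.57). Its 12 markers were above background by their mean over both groups, 9 of them on every array. Epcam and Sis were below it on each knockout array. Of the mural markers 6 passed as lower and 0 as higher, and of the enterocyte markers 10 and 0. The shares of all genes were 1.47% and 1.10%. All 10 mural and all 12 enterocyte markers had an unadjusted limma p under 0.05, against 16.4% of all genes. In all of them the groups did not overlap, against 22.0% of all genes. The part of either list in the Vcam1 difference was not tested. Of all tested genes, those whose 6 values ran most like Vcam1 were Tmem109 (Pearson r = 0.996 over 6 arrays), Clip2 (r = 0.994) and Rnf167 (r = 0.991), named by rank alone.

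ICAM-1 and ICAM-2 both bind the β2 integrin LFA-1, the first being inducible and the second carried by resting endothelium. Icam1 read 8.22, 8.16 and 8.51 in the knockout and 9.13, 8.31 and 8.10 in the controls. Control 1 stood above the other 5 arrays, which overlapped, and the difference of -0.22 ± 0.24 (95% interval -0.75 to 0.32, adjusted p = 0.713) became 0.092 without it. Icam2 read 9.43, 9.47 and 9.24 in the knockout and 9.60, 9.47 and 9.47 in the controls. The groups touched without overlapping, and the difference was -0.13 ± 0.086 (95% interval -0.33 to 0.062, adjusted p = 0.506). Madcam1, the gut addressin gene, read 11.06, 11.13 and 11.03 in the knockout and 11.29, 11.06 and 10.82 in the controls. The knockout values lay inside the control range, and the difference of 0.015 ± 0.11 had one of the narrower intervals, from -0.22 to 0.25 (adjusted p = 0.967). It was -0.013 without knockout 2 and -0.10 without control 3.

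The remaining genes act in storage, crossing and L-selectin binding. Vwf, for the glycoprotein that catches platelets, read 10.39, 10.37 and 9.998 in the knockout and 10.34, 10.08 and 10.08 in the controls. The groups overlapped (0.086 ± 0.12, 95% interval -0.18 to 0.35, adjusted p = 0.780). Cd99l2, for a membrane protein that takes part in leukocyte crossing, read 7.45, 7.11 and 7.06 against 7.30, 7.37 and 7.11. It too overlapped (-0.052 ± 0.14, 95% interval -0.37 to 0.26, adjusted p = 0.901), at 0.022 without knockout 3 and 0.0023 without control 2. Glycam1, for a secreted mucin that carries L-selectin ligands in high endothelial venules, read 6.51, 6.72 and 6.03 in the knockout and 7.63, 6.50 and 5.26 in the controls. The controls lay on both sides of the knockout arrays, and the interval was the widest of the 9 genes, from -1.16 to 1.07 around a difference of -0.042 ± 0.49 (adjusted p = 0.979). It was 0.54 without control 1 and 0.15 without knockout 3. Platelet markers, which could accompany Selp and Vwf, averaged 5.05 to 5.44 in the knockout and 5.19 to 5.36 in the control, with 7 of 7 named markers above background by their overall mean (6 on every array) and 0 passing, Pf4 at -0.18 ± 0.24 and Ppbp at 0.013 ± 0.29.

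**Figure D2:**
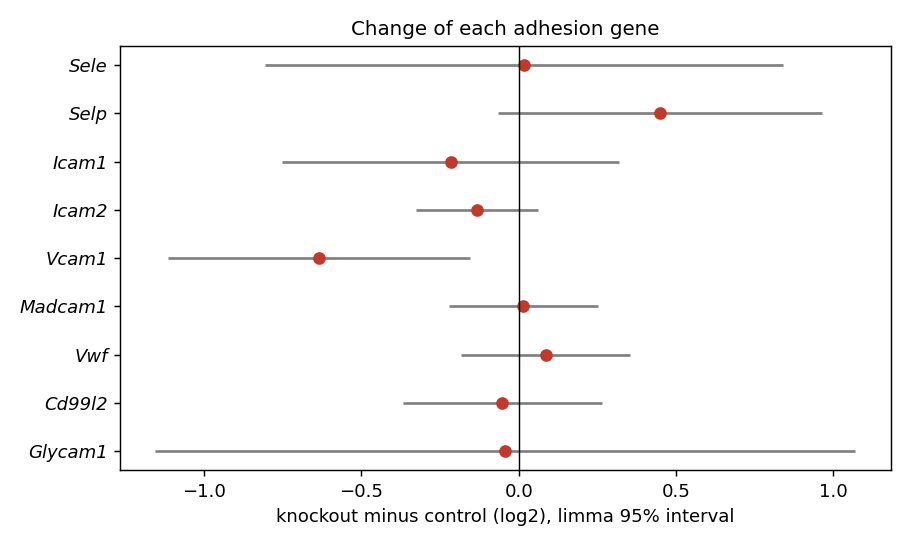
Change of each adhesion gene, knockout minus control on the log2 scale (horizontal axis), with the limma 95% interval as a line. The intervals of 8 genes cross 0, that of Vcam1 runs from -1.12 to -0.16, and that of Glycam1 is the widest.

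The controls spread more than the knockout arrays for 6 of 9 genes, against 46.1% of all genes. The range over the 3 controls was 2.37 log2 units for Glycam1, 1.39 for Sele, 1.10 for Selp and 1.03 for Icam1. The range over the knockout arrays was 0.69, 1.08, 0.13 and 0.35 for these genes. The control SD of Selp, 0.55, was 8.33 times the knockout SD of 0.066, and that of Madcam1, 0.24, was 4.59 times the knockout SD of 0.052. For Icam2, Vwf and Cd99l2 the knockout arrays spread more. Control 1 was the highest control for 8 of 9 genes, against 36.6% of all genes, with Cd99l2 the exception. Control 3 was the lowest for 8 of 9, against 37.2% of all genes, Vwf being lowest in control 2. Both held for 7 of 9 genes, against 18.9% of all genes. The 9 genes share these arrays, so their counts are not independent of each other. The knockout mean lay below control 1 for 9 of 9 genes (54.3% of all genes) and above control 3 for 7 of 9 (49.5%), Vcam1 and Icam2 being the others. Control 1 was also the control with the lowest enterocyte mean (7.01) and the highest mural mean (8.88), and the part of these in the spread was not tested.

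**Figure D3:**
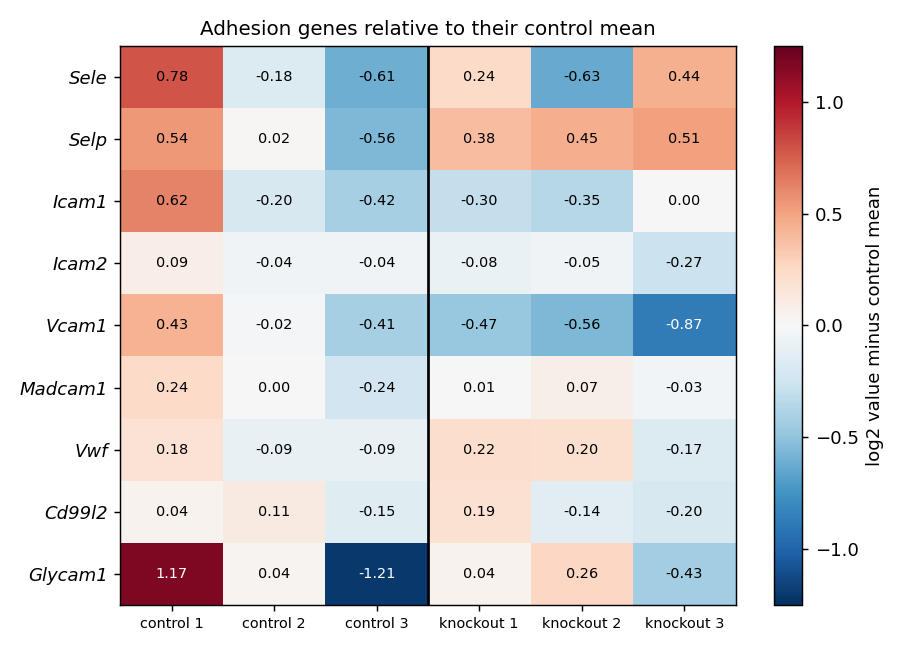
Each adhesion gene on each array as its log2 value minus the mean of the 3 controls, in colour and in figures. Control 1 is above and control 3 below the control mean for most genes, and the Vcam1 row is negative on all 3 knockout arrays (-0.47, -0.56 and -0.87). The rows of Icam2 (-0.080, -0.047 and -0.27) and Icam1 (-0.30, -0.35 and -0.00063) are negative there too.

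Madcam1 and Glycam1 followed each other closely over the arrays, a pair chosen after the values were seen. Both were highest in control 1, then in knockout 2, knockout 1, control 2, knockout 3 and control 3. Pearson's r was 0.989 and Spearman's rho 1 (exact two-sided permutation p = 0.00278 for each, the smallest that 6 arrays allow, and 0.1 after adjustment over the 36 pairs of the 9 genes). Without the 2 arrays furthest from the Madcam1 median, control 1 and control 3, r was 0.895. Leaving out 1 array at a time gave r from 0.978 to 0.999. The swing of Glycam1, 2.37 units over the controls, was larger than the 0.48 units of Madcam1. Of 15311 other tested genes, Glycam1 ranked 2nd in likeness to Madcam1, and Madcam1 ranked 3rd in likeness to Glycam1. Next came Sele with Icam1 (r = 0.839, rho = 0.886, exact permutation p = 0.0167, adjusted 0.233) and Icam2 with Vcam1 (r = 0.869, rho = 0.943, exact permutation p = 0.0194, adjusted 0.233). Without the 2 arrays furthest from the median of the first gene, r was 0.792 for Sele with Icam1 and 0.372 for Icam2 with Vcam1, where the remaining Icam2 values span little. Leaving out 1 array at a time gave r from 0.808 to 0.930 and from 0.769 to 0.926. Icam2 and Vcam1 both lay lower in the knockout, so their r and p over the 6 arrays include that shared group difference. With the mean of each group taken off, r was 0.773 for Icam2 with Vcam1 and 0.887 for Sele with Icam1. It was 0.993 for Madcam1 with Glycam1. On this measure other pairs lay above Icam2 with Vcam1 and Sele with Icam1. Among them were Icam2 with Vwf (0.986), Vcam1 with Glycam1 (0.966) and Selp with Madcam1 (0.961). The lowest pair was Sele with Icam2 (-0.0067). Markers of B and plasma cells averaged 6.31, 6.46 and 7.01 on knockout arrays 1 to 3. They averaged 6.33, 6.26 and 6.56 on control arrays 1 to 3, with 5 of 6 above background and Ms4a1 below it. The fibroblast and reticular markers averaged 5.75, 5.57 and 5.91 and 6.14, 5.74 and 5.94 on the same arrays. The part of either in the Madcam1 and Glycam1 values was not tested. Ighm (0.53 ± 0.38) and Jchain (0.41 ± 0.25) did not pass.

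**Figure D4:**
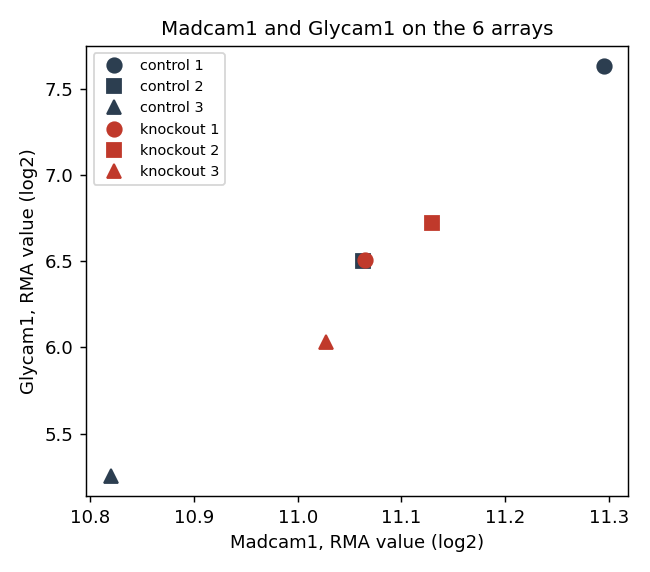
Log2 RMA value of Glycam1 (vertical axis) against Madcam1 (horizontal axis) on the 6 arrays, controls dark and knockouts red. The arrays lie in the same order on both axes, with control 1 at the top (11.29 and 7.63) and control 3 at the bottom (10.82 and 5.26).

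The promoters of the genes that ran together are shown so that the letters can be read beside the values. The RefSeq table of GRCm38.p6, covering 250 bases before to 50 after the start, held 6 of the 9 genes, not Icam2, Vcam1 or Vwf. Capitals mark matches to the NF-kB consensus, to the related pattern GGANNNTCC or to the STAT motif TTCNNNGAA, on either strand. The window of Madcam1 is chr10:79664309-79664608 on the plus strand, that of Glycam1 chr15:103565032-103565331 on the minus strand, that of Sele chr1:164047984-164048283 and that of Icam1 chr9:21015690-21015989, both on the plus strand.
Madcam1: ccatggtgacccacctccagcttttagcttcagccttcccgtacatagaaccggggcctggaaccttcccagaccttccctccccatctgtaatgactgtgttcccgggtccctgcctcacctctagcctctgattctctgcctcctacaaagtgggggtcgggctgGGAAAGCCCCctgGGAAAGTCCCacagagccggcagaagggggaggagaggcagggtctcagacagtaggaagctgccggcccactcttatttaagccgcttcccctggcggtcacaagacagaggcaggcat
Glycam1: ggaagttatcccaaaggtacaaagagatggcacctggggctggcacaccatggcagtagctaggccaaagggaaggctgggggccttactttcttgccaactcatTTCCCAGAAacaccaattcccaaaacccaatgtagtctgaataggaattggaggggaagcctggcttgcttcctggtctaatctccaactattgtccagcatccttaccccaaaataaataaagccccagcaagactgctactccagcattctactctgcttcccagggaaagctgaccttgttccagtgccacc
Sele: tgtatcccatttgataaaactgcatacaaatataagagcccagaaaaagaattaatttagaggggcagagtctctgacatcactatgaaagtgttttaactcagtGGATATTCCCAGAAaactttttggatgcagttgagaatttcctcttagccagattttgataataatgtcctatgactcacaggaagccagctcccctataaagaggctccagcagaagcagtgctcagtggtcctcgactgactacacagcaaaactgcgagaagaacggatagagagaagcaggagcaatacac
Icam1: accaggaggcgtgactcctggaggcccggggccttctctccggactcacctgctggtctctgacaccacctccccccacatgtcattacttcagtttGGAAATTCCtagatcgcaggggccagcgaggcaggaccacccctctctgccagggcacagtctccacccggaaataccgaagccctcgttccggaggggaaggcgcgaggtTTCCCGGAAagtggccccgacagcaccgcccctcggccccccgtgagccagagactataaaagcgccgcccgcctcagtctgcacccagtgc
The NF-kB consensus was found in Madcam1 alone, with 2 matches that begin 83 and 70 bases before the start, against 8.46% of all 32851 promoters. The pattern GGANNNTCC was a choice made after the sequences were seen, and in Madcam1 it overlaps a consensus match. It was in 3 of 6 promoters, Sele, Icam1 and Madcam1, against 8.62% of all. TTCNNNGAA was in 3 of 6, Sele, Icam1 and Glycam1, against 8.30%, and in Sele it overlaps the GGANNNTCC match. The AP-1 motif TGANTCA was in Sele and Selp (7.81% of all). The interferon-stimulated response element GAAANNGAAA (3.44%) and AGAACA (19.0%), only a part of the glucocorticoid receptor site, were in 0 of 6. The full receptor site was not searched for. A GATA motif (AGATAA or AGATAG or TGATAA or TGATAG, 29.8%) was in Sele alone, and an ETS motif (AGGAAA or AGGAAG or CGGAAA or CGGAAG, 64.7%) in 5 of 6, all but Cd99l2. These are matches of letters and no evidence of binding.

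Other leukocyte recruitment genes were counted in 7 lists, some of which share genes, and 8 of their genes passed. Of these calls only those of Chst2 and Mcam held without any 1 array. The counts of each list are given out of its tested genes, and no list was tested as such. Over all genes 2.57% passed, 16.4% had an unadjusted limma p under 0.05 and 22.0% had groups that do not overlap. The median change over all genes was -0.017. Among the scaffolds and enzymes that build selectin ligands, 2 of 12 tested genes rose, against 1.10% of all genes, and 0 fell, against 1.47%, with 4 of 12 under an unadjusted p of 0.05, 4 without overlap and a median change of -0.0043. Chst2, for a sulphotransferase that helps to make L-selectin ligands, read 7.46, 7.56 and 7.75 in the knockout and 6.49, 6.48 and 6.58 in the controls. The groups stood far apart, and the rise was 2.10-fold (1.07 ± 0.12, adjusted p = 0.00458). This call held without any 1 array (adjusted p from 0.00666 to 0.0300). Cd34, for a mucin of endothelium that can carry such ligands, rose from 11.22 to 11.47 (0.26 ± 0.054, adjusted p = 0.0468), a call lost without any 1 array (adjusted p from 0.0593 to 0.154). St3gal6, a sialyltransferase, was at -0.39 ± 0.088 (adjusted p = 0.0577) and Cd300lg, a mucin-like receptor of endothelium, at 0.26 ± 0.096 (adjusted p = 0.220). Chst4 and Fut7, enzymes of high endothelial venules, lay below background on all 6 arrays. In the list of venule development genes, 0 of 8 tested genes passed in limma, 0 had an unadjusted p under 0.05, 0 had groups without overlap, and the median was 0.040. B3gnt3, for a glycosyltransferase, was at 0.31 ± 0.15 (adjusted p = 0.355), and Ltbr, for the lymphotoxin receptor, at 0.16 ± 0.086 (adjusted p = 0.411).

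Of the junctional and transmigration genes, 1 of 13 rose and 0 fell, with 4 under an unadjusted p of 0.05, 4 without overlap and a median of -0.0013. Mcam, for the adhesion molecule CD146, went from a mean of 9.91 to 10.43 (0.51 ± 0.074, adjusted p = 0.0116), and held without any 1 array (adjusted p up to 0.0499). Pvr, for the poliovirus receptor of junctions, was at 0.69 ± 0.16 (adjusted p = 0.0554). Aoc3, for the adhesion protein VAP-1, was at -0.77 ± 0.18 (adjusted p = 0.0604). Smooth muscle also makes Aoc3, and the mural list lay lower with it (median -0.77), whose part was not tested.

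Of 22 tested Weibel-Palade body genes, 1 rose and 0 fell, with 5 under an unadjusted p of 0.05, 4 without overlap and a median of -0.048. Angpt2, for a Tie2 ligand stored there, went from 7.19 to 7.98 (0.79 ± 0.15, adjusted p = 0.0278), and passed or missed depending on single arrays (adjusted p from 0.0299 to 0.119), being lost without knockout 2, knockout 3, control 2 or control 3. Edn1, for endothelin-1, was at -0.78 ± 0.19 (adjusted p = 0.0652) and Cd63, a granule membrane protein, at -0.47 ± 0.12 (adjusted p = 0.0763).

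The NF-kB and cytokine-response list, the programme that can induce Sele, Icam1 and Vcam1, had 1 of 27 genes higher and 1 lower, with 8 under an unadjusted p of 0.05, 10 without overlap and a median of 0.057. Tnfaip2, a cytokine-induced gene, read 8.56, 8.64 and 8.40 in the knockout and 7.88, 7.88 and 7.59 in the controls. It rose 1.68-fold (0.75 ± 0.12, adjusted p = 0.0154), a call that ended without knockout 1, knockout 2 or control 3 (adjusted p up to 0.0550). Irf1, an interferon-response factor, fell by 0.49 (SE 0.099, adjusted p = 0.0406), a call lost without any 1 array (adjusted p from 0.0583 to 0.130). Cxcl1, a neutrophil chemokine, was at -1.19 ± 0.27 (adjusted p = 0.0537) and the TNF receptor gene Tnfrsf1b at -0.38 ± 0.12 (adjusted p = 0.144). Cxcl1 and Icam1 both had their highest value in control 1 (7.43 for Cxcl1). Control 1 was the highest control for 8 of 9 adhesion genes and for 36.6% of all genes.

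Venous identity genes, which mark the vessels where recruitment takes place, had 1 of 13 higher and 1 lower, with 5 under an unadjusted p of 0.05, 6 without overlap and a median of -0.087. Lrg1, an angiogenic glycoprotein of venules, went from 10.37 to 10.93 (0.56 ± 0.097, adjusted p = 0.0227), lost without knockout 1, 2 or 3 or control 2 (adjusted p up to 0.0727). Selenop, for a selenium carrier, fell by 0.44 (SE 0.089, adjusted p = 0.0406), lost without any 1 array (adjusted p from 0.0568 to 0.137). Aplnr, the apelin receptor gene, was at -0.57 ± 0.15 (adjusted p = 0.0966) and Cpe, for carboxypeptidase E, at -0.83 ± 0.23 (adjusted p = 0.111).

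On the leukocyte side of the contact, 0 of 11 tested counter-receptor genes passed in limma, 1 had an unadjusted p under 0.05 and 2 had groups without overlap (median -0.021). The gene with the unadjusted p under 0.05 was Itga4, for the α4 chain shared by the VCAM-1 and MAdCAM-1 receptors (5.36 in the control and 4.82 in the knockout, -0.54 ± 0.18, adjusted p = 0.161). Selplg, for the P-selectin ligand of leukocytes, was at -0.70 ± 0.33 (adjusted p = 0.336). With the mean of all its probe sets Selplg was at -0.30 ± 0.24. Leaving out 1 array gave Selplg changes from -0.93 to -0.31, the last without knockout 2. The sort removed CD45+ cells, and T and NK cell markers averaged 4.69 to 5.00 in the knockout and 5.40 to 6.33 in the control. Of these, 9 of 9 lay above background by their overall mean (5 on every array), and 1 passed as lower and 0 as higher. The changes of all 9 were below 0 (median -0.64). An unadjusted limma p under 0.05 was found for 6, against 16.4% of all genes, and 5 had no overlap, against 22.0%. Ccl5, the brightest of these markers, fell by 1.86 (SE 0.30, adjusted p = 0.0173), and Nkg7 was at -0.64 ± 0.18 (adjusted p = 0.116). Their part in these values was not tested.

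**Figure D5:**
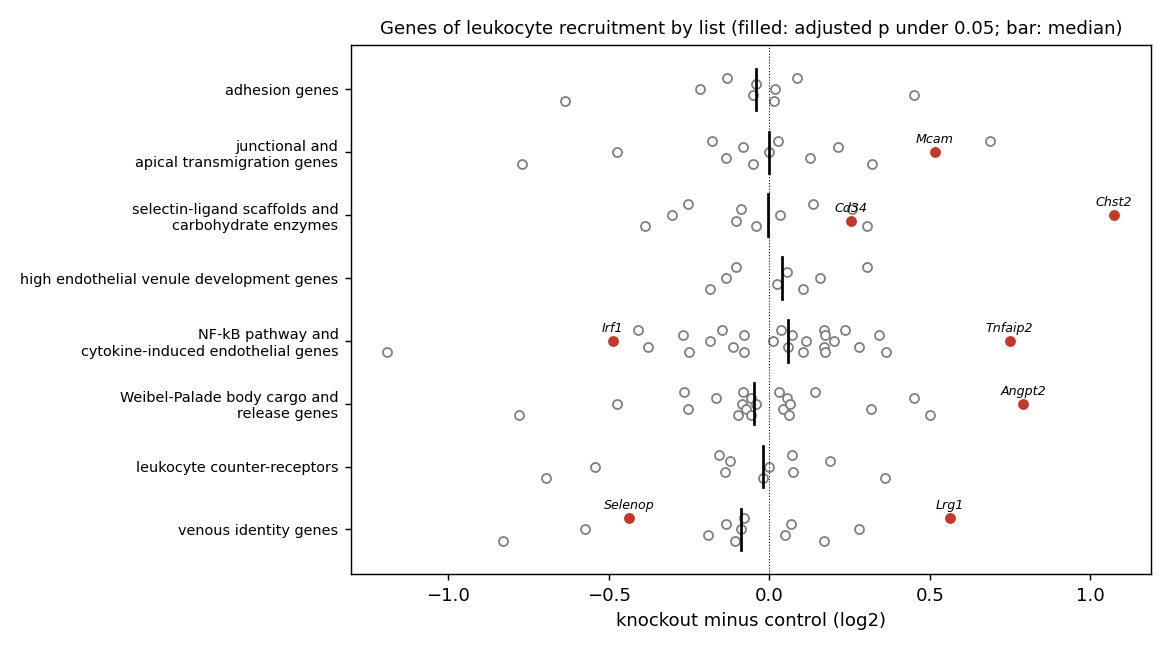
Change of every tested gene (knockout minus control, log2, horizontal axis) in the adhesion genes and in 7 lists of leukocyte recruitment, each list on its own row with its median as a bar. Filled points passed an adjusted p of 0.05, none of them in the top row, and Chst2 is the farthest to the right.

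The other cell types that the sort could hold were measured by marker lists. Lymphatic markers averaged 5.11 to 5.84 in the knockout and 4.93 to 5.38 in the control, with 5 of 5 above background by their overall mean (3 on every array), Lyve1 higher (1.13 ± 0.23, adjusted p = 0.0406) and Pdpn at -0.30 ± 0.18. Fibroblast and reticular markers, cells that can also make VCAM-1 and MAdCAM-1, averaged 5.57 to 5.91 and 5.74 to 6.14, with 7 of 9 above background, Lum and Tnfsf11 below it and Col1a2 lower (-0.83 ± 0.17, adjusted p = 0.0433), and Dcn at -0.074 ± 0.23. Macrophage and neutrophil markers averaged 5.45 to 5.55 and 5.18 to 5.43, with 6 of 9 above background, S100a8, S100a9 and Csf3r below it, and 0 passing, Cd68 at 0.054 ± 0.23 and Cx3cr1 at -0.012 ± 0.11. Their part in the values of the adhesion genes was not tested.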

How the data were processed

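The deposited table holds log2 values of 41345 probe sets on 6 arrays, made by the authors with RMA in the oligo package per the submitters' processing notes (RMA corrects background, normalizes quantiles across arrays and summarises probes). Versions and the annotation build are not given in the sources used here. Array medians lay between 4.77 and 4.81. Arrays have no read depth, so their number limits the precision.

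Probe sets with exactly 1 gene symbol (23521, against 1814 with several and 16010 with none) were named by the platform annotation, updated through gene identifiers, and the probe set with the highest mean stood for each gene. Genes whose mean exceeded background were tested with limma 3.58.1 in R 4.3.3 (lmFit, two-sided, eBayes with a trend of variance on mean, Benjamini-Hochberg), all 6 arrays in 1 fit without covariates. The steps were tested on simulated data. Exact permutation tests used scipy 1.17.1. Samples were grouped by their titles. Same-numbered arrays of the groups did not deviate together (r of -0.021, -0.0074 and 0.039), so numbers were not taken as pairs.

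The members, gene lists and alternatives were chosen with earlier results of these data known. Named genes were the 9 members, the called genes (at most 6) and the next 2 by p of each pathway list, the 2 brightest of each marker list, and the 3 genes most like the member with the smallest p. Cldn5 and the genes below background were named after their values were seen. The limma p-values set each difference against the spread between these arrays, 3 a group, moderated over all tested genes.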

Additional observations from a re-analysis of the deposited data

How the results depend on the processing

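Under 20 alternatives, 0 of the 9 adhesion genes passed. Their smallest adjusted p was 0.0669, for Selp without control 1. The count of changed genes over the whole table was 393 and lay between 91 and 379 when 1 array was left out. It was 219, 172 and 91 without knockout 1, 2 and 3, and 194 and 128 without control 2 and 3. It was 139 without a variance trend, 768 at an adjusted p of 0.10, 52 with control 1 as the lone control (the spread then comes from the knockout arrays alone), 4 with the enterocyte mean as a covariate and 0 with the mural mean as one. The mural setting was added after the data were seen. The calls of Chst2 and Mcam ended in these last 3 settings, with changes of 1.10, 1.08 and 0.70 for Chst2 (1.07 in the report) and 0.53, 0.51 and 0.25 for Mcam (0.51). That of Mcam also ended without a variance trend, at the same change and a larger standard error (0.11, adjusted p = 0.0732). Without that trend the calls of Cd34, Angpt2, Irf1, Lrg1 and Selenop ended too, and those of Chst2 and Tnfaip2 stood. Those of Cd34, Irf1 and Selenop also ended without the low-value filter, and that of Cd34 with the probe set of largest variance. With the enterocyte or the mural covariate, the calls of Cd34, Angpt2, Irf1, Lrg1, Selenop and Tnfaip2 ended as well. These covariates differ between the groups almost as the genotype does, so these fits leave little of the comparison. With a replicate block the count was 394, and no adhesion gene passed. The block raised the calls of Cxcl1, Edn1, Cd63 and Aplnr past the threshold and ended those of Cd34 and Irf1. The numbers share no known batch.

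With control 1 alone, the changes of Sele (-0.77), Selp (-0.090), Madcam1 (-0.22) and Vwf (-0.091) turned negative. With the enterocyte covariate Sele (-1.63), Selp (-0.45), Madcam1 (-0.36), Vwf (-0.25) and Tnfrsf1b (0.092) turned sign. With the mural covariate Icam1 (0.49), Icam2 (0.25), Vcam1 (0.57), Cd99l2 (0.43), Glycam1 (2.502), Cd300lg (-0.19), Cxcl1 (0.46), Cd63 (0.20) and Aplnr (0.13) did. List medians moved beyond the spread between arrays only with these covariates. They were -0.063 (NF-kB) and -0.27 (venous) with the enterocyte mean, and 0.22 (venule development), 0.25 (NF-kB) and 0.18 (venous) with the mural mean. Leaving out 1 array turned Sele (-0.29 to 0.41), Madcam1 (-0.10 to 0.13), Icam1 (-0.42 to 0.092), Cd99l2 (-0.17 to 0.022) and Glycam1 (-0.65 to 0.54). The cause of these changes was not tested.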
